A study of Equus caballus with 68 samples.

Results

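The genes described here are 10 genes of the endoplasmic reticulum (ER) stress response, HSPA5, HSP90B1, DNAJB9, HERPUD1, ATF6, ERN1, EIF2AK3, ATF4, DDIT3 and ATF3, found by their gene symbol among the 30371 genes of the expression table. All 10 were present with 1 entry each, and all 10 passed the filter on low values that 14570 genes passed. They were followed in bone marrow mononuclear cells (BMNC) of 8 Thoroughbred horses aged 3 to 9 years, both mares and geldings, before culture (0 hours, n = 8 libraries) and after culture in undiluted synovial fluid of the same horse. Normal fluid (SF) came from healthy joints. Inflamed fluid (ISF) came from joints in which lipopolysaccharide had been injected to cause synovitis. Cultures of each fluid were sampled at 48 hours (n = 7), 96 hours (n = 8), 6 days (n = 8) and 10 days (n = 7), with 1 culture per horse, fluid and time point. No culture was kept in another medium, so the change from 0 hours to 48 hours joins the effect of being cultured with that of the fluid, and these cannot be told apart.

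Proteins that enter the secretory pathway fold in the ER with the help of chaperones. When unfolded proteins build up, 3 sensors in the ER membrane respond: IRE1, encoded by ERN1, PERK, encoded by EIF2AK3, and ATF6. ATF6 and IRE1, which splices the transcript of the transcription factor XBP1, raise chaperones and the machinery of ER-associated degradation, whereas PERK slows translation and favors the transcription factor ATF4, upstream of DDIT3 (CHOP) and ATF3. Macrophages, into which the myeloid cells of the marrow can develop, are secretory and phagocytic cells in which this response has been widely studied. Messenger RNA levels, as measured here, show neither the splicing of XBP1 nor the cleavage of ATF6 nor the phosphorylation of PERK.

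Values are GeTMM, reads per kilobase of gene scaled to the library, so that levels can be compared between genes. Between 15.7 M and 36.0 M reads on genes stood behind a library (median 22.3 M). Among the 10 genes, reads per library ranged from 29 for ERN1 to 78619 for HSPA5, and ERN1 was the least expressed, at 0.971 to 13.8 GeTMM. Some libraries stood apart. The SF culture of the horse Moon at 6 days had 11703 genes at 0.5 GeTMM or more, the fewest of the 68 libraries. Against the other SF cultures of 6 days, its genes of up to 1125 bases had a median difference of -0.08 on the log2 scale and its genes of 2163 bases or more one of -0.63, a gap of 0.54. In every other library, set against the rest of its group, this gap lay between -0.29 and 0.19. By the genes that varied most between horses, 66 of 68 libraries lay closest to the horse they are labelled with. The libraries labelled ISF at 96 hours of Dealings and of Dreamer each lay closest to the other of these horses. Both belong to the same group, so means of the group do not depend on which is which. Differences within horses at 96 hours, and fits with the horse as a block, do depend on it and take the labels as given. The values at 6 days without the library of Moon, and at 96 hours without both libraries of Dealings and Dreamer, are given for the 10 genes where they change a call, and for the lists of other genes as counts and for the genes named that lose their call.

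Before culture, the chaperones HSPA5 (BiP, the main ER chaperone, which also holds the sensors inactive) and HSP90B1 (GRP94, the HSP90 paralog of the ER) were at 334 ± 53.2 and 231 ± 32.4 GeTMM (SD, n = 8), and ATF4 was at 328 ± 44.0 GeTMM. HERPUD1, a membrane protein of ER-associated degradation, was at 139 ± 28.4 GeTMM and DDIT3 at 85.6 ± 41.7 GeTMM. The sensors were at lower levels, with 55.2 ± 6.45 GeTMM for ATF6, 27.6 ± 3.76 for EIF2AK3 and 8.36 ± 1.88 for ERN1. DNAJB9 (ERdj4, a J-domain partner of BiP) was at 18.0 ± 6.28 GeTMM and ATF3 at 9.82 ± 4.45 GeTMM. The uncultured cells thus spanned from ERN1 and ATF3 to HSPA5 and ATF4, with the 3 sensors below the chaperones HSPA5 and HSP90B1 in every library.

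**Figure D1:**
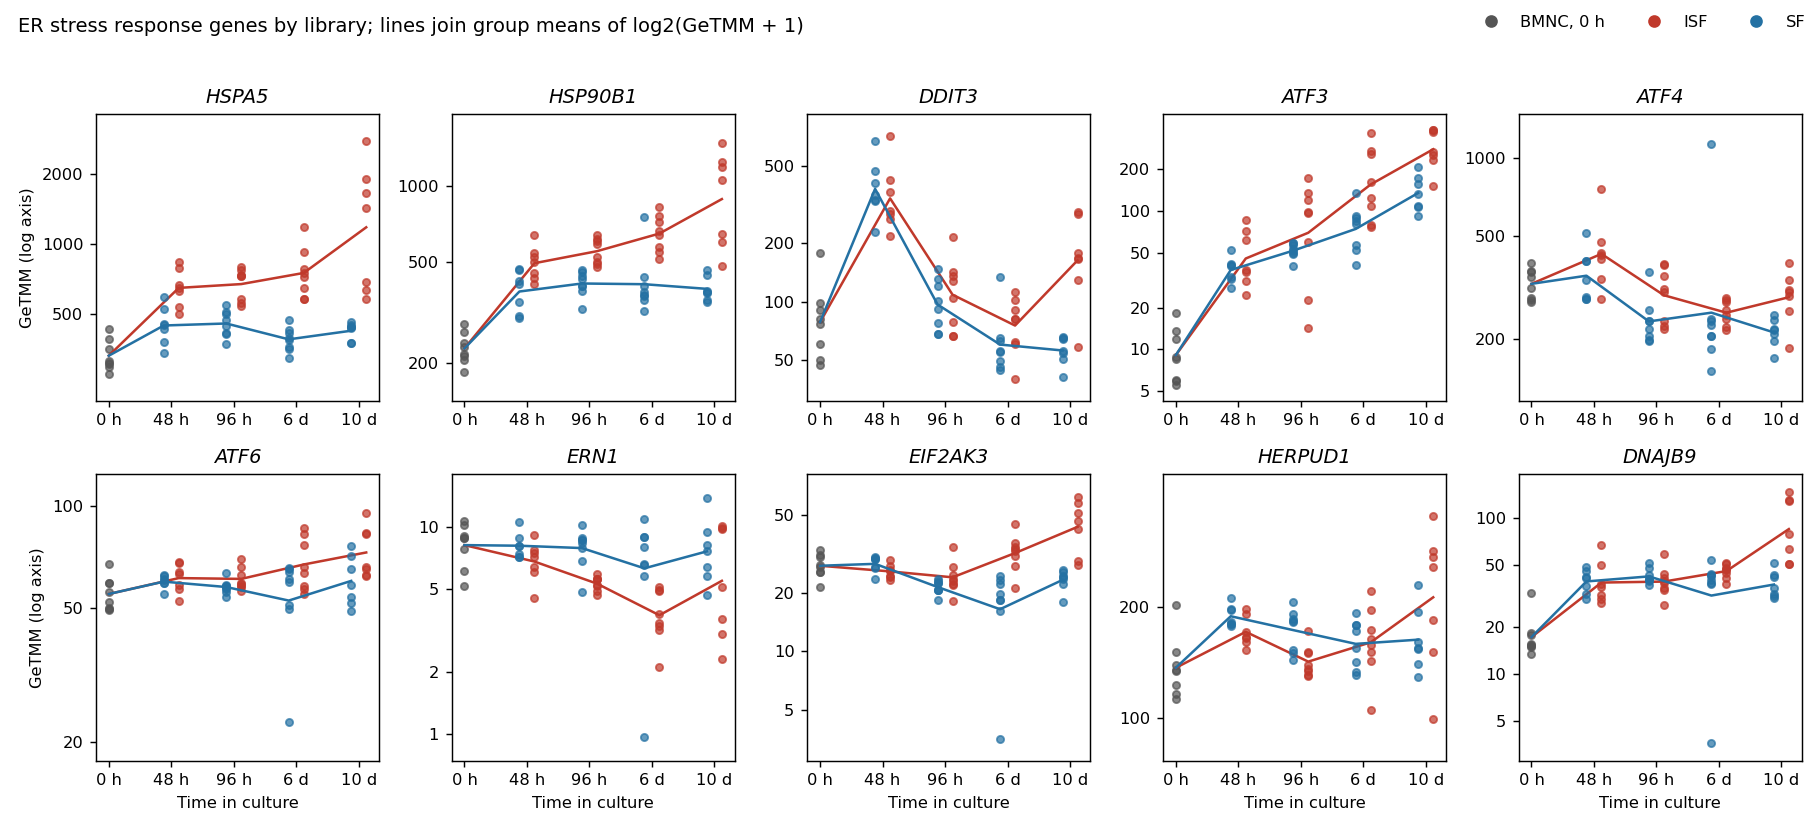
Level of the 10 genes in each library (GeTMM, log axis, 1 point per horse) against time in culture, for uncultured BMNC (grey), ISF cultures (red) and SF cultures (blue), with lines joining the group means of log2(GeTMM + 1). HSPA5 in ISF at 10 days ranged from 582 to 2796 GeTMM, all above the SF cultures of that time, which reached 462, and the low SF points of ATF6, ERN1, EIF2AK3 and DNAJB9 at 6 days are 1 library, that of Moon.

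More of these genes were called between ISF and SF cultures at 6 and 10 days than at 48 and 96 hours, as were more of all genes. Counts of calls at separate times do not test a change with time. The interactions given below do, and in the main fit they called EIF2AK3 alone among the 10 genes. Differences were tested with limma on log2(GeTMM + 1) over all 14570 genes, and a gene was called at a false discovery rate (FDR) under 0.05. At 48 hours none of the 10 genes was called by limma, which called 0.872% of all genes higher and 0.810% lower. Of the 10 genes, 2 had an unadjusted p under 0.05 in that fit, as had 2035 of all 14570 genes. Of the 10 genes, limma voom on recovered reads called none. At 96 hours HSPA5 alone was called higher in ISF, against 6.16% of all genes higher and 4.30% lower. At 6 days 5 genes, HSPA5, HSP90B1, ATF3, ATF6 and EIF2AK3, were called higher and ERN1 was called lower, against 16.7% and 13.6% of all genes. At 10 days 6 genes, HSPA5, HSP90B1, DDIT3, ATF3, EIF2AK3 and DNAJB9, were called higher and none lower, against 9.95% and 10.8% of all genes. The median log2 fold change of the 10 genes was 0.01, 0.16, 0.43 and 0.96 at the 4 successive times, whereas that of all genes tested stayed between -0.02 and 0.00.

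**Figure D2:**
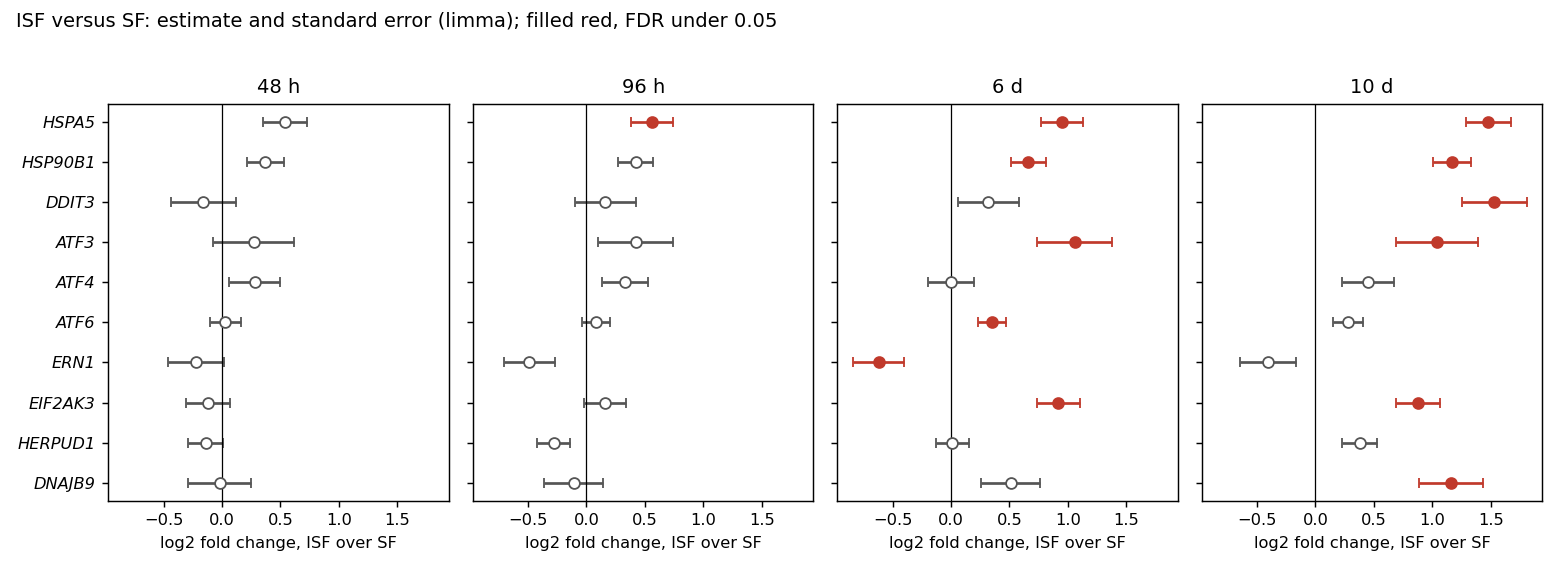
Log2 fold change of ISF over SF for each gene at 48 hours, 96 hours, 6 days and 10 days, with its standard error (limma), filled red where the FDR was under 0.05. The number of filled points is 0, 1, 6 and 6 from left to right, and ERN1 at 6 days is the one called on the side of SF.

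Of the ER chaperones, HSPA5 and HSP90B1 were higher in ISF at 6 and 10 days and DNAJB9 at 10 days. HSPA5 in ISF ranged from 499.8 to 838 GeTMM (median 646) after 48 hours and from 543 to 793 (median 729) after 96 hours. By 6 days the range was 577 to 1185 GeTMM (median 739), and by 10 days it was 582 to 2796 (median 1430.2). In SF its medians were 448, 457, 388 and 437 GeTMM at these times, and no SF library exceeded 593. Every ISF library was above every SF library at 6 days and at 10 days, while the groups overlapped at 48 and 96 hours. On the log2 scale, ISF exceeded SF by 0.54 (SE 0.19, FDR 0.140) at 48 hours and 0.56 (SE 0.18, FDR 0.0318) at 96 hours. It was 0.95 (SE 0.18, FDR 3.50e-05), or 1.93-fold, at 6 days and 1.48 (SE 0.19, FDR 4.62e-08), or 2.79-fold, at 10 days. HSPA5 was higher in ISF than in SF in every horse, as labelled, at each of the 4 times. The call at 96 hours was lost when the ISF libraries labelled Dealings and Dreamer were left out (0.51, FDR 0.109) and with no filter on low values (0.56, FDR 0.0523).

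HSP90B1 followed HSPA5 at lower levels. In ISF its median was 498, 556, 653 and 1054 GeTMM at the 4 successive times, and the highest library was that of Ollie at 10 days, with 1466. In SF the medians lay between 375 and 416 GeTMM. The groups did not overlap at 96 hours (ISF from 478, SF up to 467) or at 10 days (ISF from 482, SF up to 467). At 6 days they overlapped through the SF library of Moon, which had 754 GeTMM beside 322 to 435 in the other 7. HSP90B1 thus had log2 fold changes of 0.37 (SE 0.16, FDR 0.258) at 48 hours and 0.42 (SE 0.15, FDR 0.0563) at 96 hours, which were not called. It was higher by 0.66 (SE 0.15, FDR 4.38e-04) at 6 days and by 1.17 (SE 0.16, FDR 1.47e-07), or 2.25-fold, at 10 days. The difference at 96 hours was called without the library of Moon in the fit (0.42, FDR 0.0246) and with only the groups of that time fitted (0.42, FDR 0.00415). It was also called with the horse, as labelled, as a block (0.42, FDR 0.0481). Without the library of Moon, the difference at 6 days was 0.79 (FDR 1.14e-05).

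DNAJB9 was called between the fluids at 10 days only. Its medians in SF were 41.5, 40.7, 41.6 and 35.5 GeTMM from 48 hours to 10 days, and in ISF 36.0, 39.0, 47.1 and 78.7 GeTMM. At 10 days ISF ranged from 51.0 to 147 GeTMM and SF from 30.8 to 51.3, so that the lowest ISF libraries, of Dealings and Moon, met the highest SF library, of Dreamer. The difference at 10 days was 1.16 on the log2 scale (SE 0.27, FDR 0.00113), or 2.23-fold, with ISF above SF in 7 of 7 horses. It was -0.02 at 48 hours, -0.11 at 96 hours and 0.51 at 6 days, none of them called. The value at 6 days rested on the SF library of Moon, which had 3.62 GeTMM beside 37.9 to 53.7 in the others, and was 0.10 (FDR 0.679) without it.

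HERPUD1 passed the test at no time between the fluids. Its group medians ran from 135 GeTMM at 0 hours to 256 in ISF at 10 days. At 96 hours it was lower in ISF than in SF in 8 of 8 horses as labelled, by a log2 fold change of -0.28 (SE 0.14, FDR 0.218), which was not called. Fitted on the groups of 96 hours alone, that difference was called (-0.28, FDR 0.0269). At 10 days ISF spanned 99.7 to 352 GeTMM, wider than the 129 to 229 of SF and around it on both sides, with Moon lowest and Ollie highest. Its log2 fold change was then 0.38 (SE 0.15, FDR 0.0698), and with the horse as a block it was called (0.38, FDR 0.0364).

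Of the 3 sensors, EIF2AK3 was higher in ISF at 6 and 10 days, ERN1 was lower at 6 days, and the call of ATF6 depended on 1 library. EIF2AK3 (PERK) had medians in ISF of 25.8, 23.3, 33.1 and 46.5 GeTMM at the 4 times, against 29.7, 21.5, 19.0 and 24.1 GeTMM in SF. At 10 days ISF ranged from 27.7 to 62.2 GeTMM and SF from 17.9 to 26.2, without overlap. Its log2 fold change was -0.12 (FDR 0.840) at 48 hours and 0.16 (FDR 0.654) at 96 hours. EIF2AK3 was higher by 0.92 (SE 0.18, FDR 4.81e-05) at 6 days and by 0.88 (SE 0.19, FDR 4.13e-04) at 10 days, in every horse at both times. Without the SF library of Moon, at 3.56 GeTMM against 16.1 to 24.3 in the others, the difference at 6 days was 0.64 (FDR 3.70e-05). Whether the difference between the fluids changed with time was tested by 2 interactions, which set 6 days against 48 hours and 10 days against 6 days. No test set 10 days against 48 hours, so changes over that longer span are not judged here. At the later step DNAJB9 was called, but only without the library of Moon (1.06, FDR 0.0235). In the main fit EIF2AK3 was the only one of the 10 genes called by either interaction, at the earlier step. The difference rose by 1.04 on the log2 scale from 48 hours to 6 days (SE 0.26, FDR 0.00860), by 0.76 (FDR 0.00385) without the library of Moon, and was not called when only these 4 groups were fitted (1.04, FDR 0.0901). That change was called higher for 3.53% and lower for 1.85% of all genes.

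ERN1 (IRE1) was lower in ISF at 6 days. Its ISF libraries then ranged from 2.12 to 5.11 GeTMM with a median of 3.62, against a median of 7.33 in SF. The SF library of Moon had 0.971 GeTMM, from 29 reads, whereas the other 7 SF libraries had 5.83 to 10.9 and lay above every ISF library. ERN1 was lower by -0.62 on the log2 scale (SE 0.22, FDR 0.0267) with all libraries and by -0.89 (FDR 1.49e-04) without that of Moon. Fitted on the 2 groups of 6 days alone, the former was not called (-0.62, FDR 0.182). It was -0.22 (FDR 0.737) at 48 hours, -0.49 (FDR 0.150) at 96 hours and -0.41 (FDR 0.231) at 10 days, and the value at 96 hours was called when the groups of that time were fitted alone (-0.49, FDR 0.00699). At 10 days the ISF cultures were split, with 9.78 to 10.1 GeTMM in Catnip, Ollie and RimRun and 2.30 to 5.14 in the other 4 horses, and SF ranged from 4.71 to 13.8. At these low levels, fold changes on the log2(GeTMM + 1) scale understate the change.

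ATF6 had a narrow range. Its group medians lay between 53.8 GeTMM at 0 hours and 65.9 in ISF at 10 days. At 6 days ISF had 54.7 to 86.1 GeTMM and SF 49.6 to 65.4, apart from the 22.8 of the library of Moon. The difference at 6 days was called with all libraries (0.35, SE 0.12, FDR 0.0202) and not without that of Moon (0.18, FDR 0.110) or with only the groups of 6 days fitted (0.35, FDR 0.251). At 10 days it was 0.28 (SE 0.13, FDR 0.119), with ISF higher in 6 of 7 horses.

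Among the transcription factors, ATF3 and DDIT3 were called higher in ISF and ATF4 was not. ATF3, an immediate early and stress-induced factor, had medians in ISF of 37.1, 96.8, 142 and 266 GeTMM from 48 hours to 10 days, and in SF of 39.8, 52.0, 82.3 and 133 GeTMM. Its ISF libraries of 96 hours were scattered from 14.3 GeTMM in Flash to 173 in Ollie, whereas the SF libraries reached 58.3 and had an SD of 6.18. Its log2 fold change was 0.27 (FDR 0.800) at 48 hours and 0.42 (FDR 0.470) at 96 hours, then 1.06 (SE 0.32, FDR 0.00952) at 6 days and 1.04 (SE 0.35, FDR 0.0245) at 10 days. ISF was above SF in every horse at the last 2 times, although the groups overlapped, since SF reached 205 GeTMM at 10 days and ISF began at 151.

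DDIT3 (CHOP, a factor linked to cell death under prolonged ER stress) was not called up to 6 days, with log2 fold changes of -0.16 (FDR 0.868), 0.16 (FDR 0.772) and 0.32 (FDR 0.379) and standard errors of 0.26 to 0.28. At 10 days it had 58.3 to 291 GeTMM in ISF (median 169) and 41.1 to 65.7 in SF (median 55.9). Only the ISF library of Moon, at 58.3, fell in the range of SF, and the other 6 began at 129. On the log2 scale DDIT3 was higher by 1.53 (SE 0.28, FDR 3.83e-05), or 2.88-fold, with ISF higher in 7 of 7 horses.

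ATF4, which drives genes of amino acid supply and redox balance when translation is slowed, had medians of 419, 307, 252 and 302 GeTMM in ISF and of 338, 226, 215 and 216 GeTMM in SF. Its log2 fold change was 0.28 (FDR 0.620) at 48 hours, 0.33 (FDR 0.332) at 96 hours and 0.45 (SE 0.22, FDR 0.142) at 10 days. At 6 days it was -0.00 with all libraries, because the SF library of Moon had 1132 GeTMM beside 149.5 to 238 in the others, and 0.31 (FDR 0.0987) without it. ATF4 is controlled largely at translation, which these data do not measure. With that library left out of the fit, ATF4 (0.45, FDR 0.0222) and ATF6 (0.28, FDR 0.0219) were also called at 10 days.

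**Figure D3:**
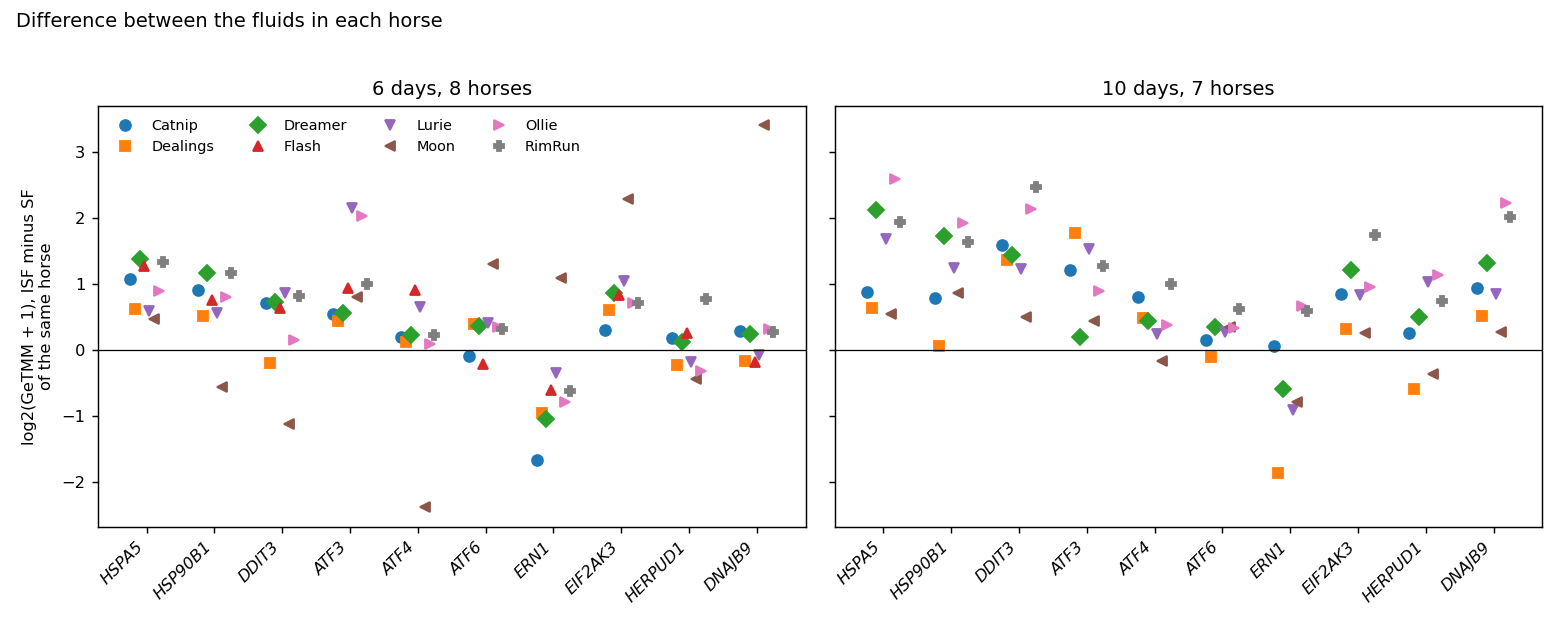
ISF minus SF, in log2(GeTMM + 1), within each horse for the 10 genes, at 6 days (8 horses) and 10 days (7 horses), 1 symbol for each horse. At 10 days HSPA5 ranged from 0.54 in Moon to 2.59 in Ollie with every horse above 0, and at 6 days Moon stood outside the other horses for ATF4 (-2.39) and DNAJB9 (3.40).

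The size of the difference varied between horses. HSPA5 in ISF at 10 days was at 2796 GeTMM in Ollie, 1902 in Dreamer, 1667 in RimRun and 1430.2 in Lurie, but at 686 in Catnip, 637 in Moon and 582 in Dealings. HSP90B1 kept this split, with 1054 to 1466 GeTMM in the former 4 horses and 482 to 647 in the latter 3, and so did DNAJB9, with 78.7 to 147 and 51.0 to 63.3. HERPUD1 was likewise higher in the former 4 (256 to 352 GeTMM) than in the latter 3 (99.7 to 185). ATF3 did not follow it, being at 151 GeTMM in Dreamer and 368 in Dealings. Nor did ERN1, which was high in Catnip and low in Dreamer and Lurie, or ATF6, which was lowest in Lurie (62.0 GeTMM). The split was drawn from HSPA5, and how far the 10 genes share it was not tested. Ollie was the highest horse for 7 of the 10 genes and RimRun for the other 3, whereas Dealings and Moon were each the lowest for 4. In the SF cultures of 10 days the same horses lay close together, from 374 to 462 GeTMM for HSPA5 and from 349 to 467 for HSP90B1.

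Changes with time in culture were tested within each fluid. From 0 to 48 hours, HSPA5, HSP90B1, DDIT3, ATF3 and DNAJB9 rose in ISF, and HSP90B1, DDIT3, ATF3, HERPUD1 and DNAJB9 rose in SF. None of the 10 genes was called lower. Over this interval 25.3% of all genes were called higher and 27.4% lower in ISF, and 22.3% and 23.1% in SF. The intervals of the 2 fluids share the libraries of 0 hours, so their values are given side by side and were not tested against each other.

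ATF3 and DDIT3 had the largest changes of this interval. ATF3 went from 5.55 to 18.2 GeTMM at 0 hours to 24.8 to 85.1 in ISF and 27.8 to 51.9 in SF, with log2 fold changes of 2.20 (SE 0.34, FDR 1.06e-07) and 1.93 (SE 0.34, FDR 2.49e-06). DDIT3 went from 47.5 to 178 GeTMM at 0 hours to 219 to 711 in ISF and 229 to 676 in SF, with log2 fold changes of 2.10 (SE 0.27, FDR 1.20e-09) and 2.26 (SE 0.27, FDR 1.94e-10). For both genes, no cultured library of 48 hours overlapped the libraries of 0 hours. Here and elsewhere, overlap of libraries was read for the 10 genes only, so no share of all genes stands beside it. HSP90B1 rose by 1.11 (SE 0.15, FDR 9.86e-09) in ISF and by 0.74 (SE 0.15, FDR 5.97e-05) in SF, also without overlap. HSPA5 rose by 0.97 (SE 0.19, FDR 1.21e-05) in ISF, and its value of 0.43 in SF (SE 0.19, FDR 0.0529) just missed the threshold. With limma voom on recovered reads that value was called (0.43, FDR 0.0467). DNAJB9 rose from a median of 15.4 GeTMM by 1.12 (SE 0.26, FDR 2.71e-04) in ISF and 1.14 (SE 0.26, FDR 2.60e-04) in SF. HERPUD1 rose by 0.46 (SE 0.15, FDR 0.00877) in SF, and its value in ISF was 0.32 (FDR 0.0657). The sensors had log2 fold changes between -0.23 and 0.15 in both fluids, and ATF4 had 0.38 (FDR 0.125) in ISF and 0.10 (FDR 0.728) in SF, so none of these 4 genes passed the test. With the library of Moon left out of the fit, ATF4 was called in ISF (0.38, FDR 0.0225).

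From 48 to 96 hours DDIT3 fell back. Its log2 fold change was -1.64 (SE 0.27, FDR 6.49e-06) in ISF, where 7 libraries of 219 to 711 GeTMM were followed by 8 of 66.6 to 215. In SF it was -1.97 (SE 0.27, FDR 5.47e-08), with at most 148 GeTMM at 96 hours. ATF4 fell in SF (-0.58, SE 0.21, FDR 0.0319) and had -0.53 (SE 0.21, FDR 0.0708) in ISF, where it was called with the horse as a block (-0.57, FDR 0.0327) and without the library of Moon (-0.53, FDR 0.00479). ATF4 was lower at 96 hours in 7 of 7 horses in both fluids. In ISF, this count and the block take the labels of Dealings and Dreamer at 96 hours as given. The call in SF was lost with no filter on low values (-0.58, FDR 0.0515). DDIT3 in ISF and DDIT3 and ATF4 in SF were thus the genes called lower, against 10.4% of all genes in ISF and 15.8% in SF, and none was called higher, against 8.54% and 11.5%. With the groups of an interval fitted alone, EIF2AK3 was also called lower in SF (-0.38, FDR 8.71e-04) and ATF3 higher (0.45, FDR 0.00733), and HERPUD1 was called lower in ISF (-0.27, FDR 0.0157). EIF2AK3 in SF was called without the library of Moon as well (-0.38, FDR 0.0115). HSPA5, HSP90B1 and DNAJB9 had log2 fold changes between 0.02 and 0.16 in both fluids over this interval.

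From 96 hours to 6 days ATF3 rose in ISF in 8 of 8 horses as labelled (1.15, SE 0.32, FDR 0.0215), and it was the only one of the 10 genes called, against 2.83% of all genes higher and 3.54% lower. The call was lost when these 2 groups were fitted alone (1.15, FDR 0.164). ATF3 in SF had 0.51 (FDR 0.427), and the difference between the fluids over this interval was not tested. In SF none of the 10 genes was called by limma or by limma voom, against 0.432% of all genes called higher and 1.61% lower by limma. In the main limma fit, 2 of the 10 genes and 2448 of all 14570 genes had an unadjusted p under 0.05.

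From 6 to 10 days the chaperones and DDIT3 rose again in ISF. DDIT3 went from 40.2 to 112 GeTMM to 58.3 to 291 GeTMM, with a log2 fold change of 1.11 (SE 0.27, FDR 0.00340), and it was higher in 6 of 7 horses. DNAJB9 rose by 0.88 (SE 0.26, FDR 0.0198) in 7 of 7 horses, HSPA5 by 0.65 (SE 0.19, FDR 0.0136) in 5 of 7 and HSP90B1 by 0.45 (SE 0.15, FDR 0.0479) in 5 of 7. Dealings and Catnip were the horses in which neither HSPA5 nor HSP90B1 was higher at 10 days. When these 2 groups were fitted alone, neither HSPA5 (0.65, FDR 0.220) nor HSP90B1 (0.45, FDR 0.227) was called, and HSP90B1 also missed the threshold under 4 other alternatives, at FDR 0.0512 to 0.0676. With the library of Moon left out of the fit, EIF2AK3 was called in ISF over this interval (0.44, FDR 0.00935) and the previous one (0.40, FDR 0.0195). With the horse as a block HERPUD1 was called as well (0.40, FDR 0.0346). These 4 calls compare with 5.09% of all genes higher and 5.44% lower. Over the same interval all 4 cell cycle markers fell in ISF, with sums of 65.7 to 168 GeTMM at 6 days and 24.9 to 149.6 at 10 days. Of T cell markers 3 of 5 fell (sums of 8.57 to 47.3 and 4.33 to 14.8 GeTMM), as did 3 of 6 neutrophil precursor markers (2.76 to 2393 and 0.759 to 63.7 GeTMM). No macrophage, plasma cell, erythroid or stromal marker was called by limma, and the part of these shifts in the changes of the 10 genes was not tested. In SF none of the 10 genes was called by limma or by limma voom, against 3.19% of all genes called higher and 1.59% lower by limma. In the main limma fit, 2 of the 10 genes and 3283 of all 14570 genes had an unadjusted p under 0.05. With the horse as a block, EIF2AK3 was called in SF (0.47, FDR 0.0464), and its value there rested on the library of Moon at 6 days (0.20, FDR 0.450, without it). The change of the difference between the fluids from 6 to 10 days was called for none of the 10 genes by limma or by limma voom. For all genes, limma called 0.0824% higher and 0.144% lower. In this interaction, 3 of the 10 genes and 1989 of all 14570 genes had an unadjusted p under 0.05 in the main limma fit. Without the library of Moon DNAJB9 was called (1.06, FDR 0.0235).

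**Figure D4:**
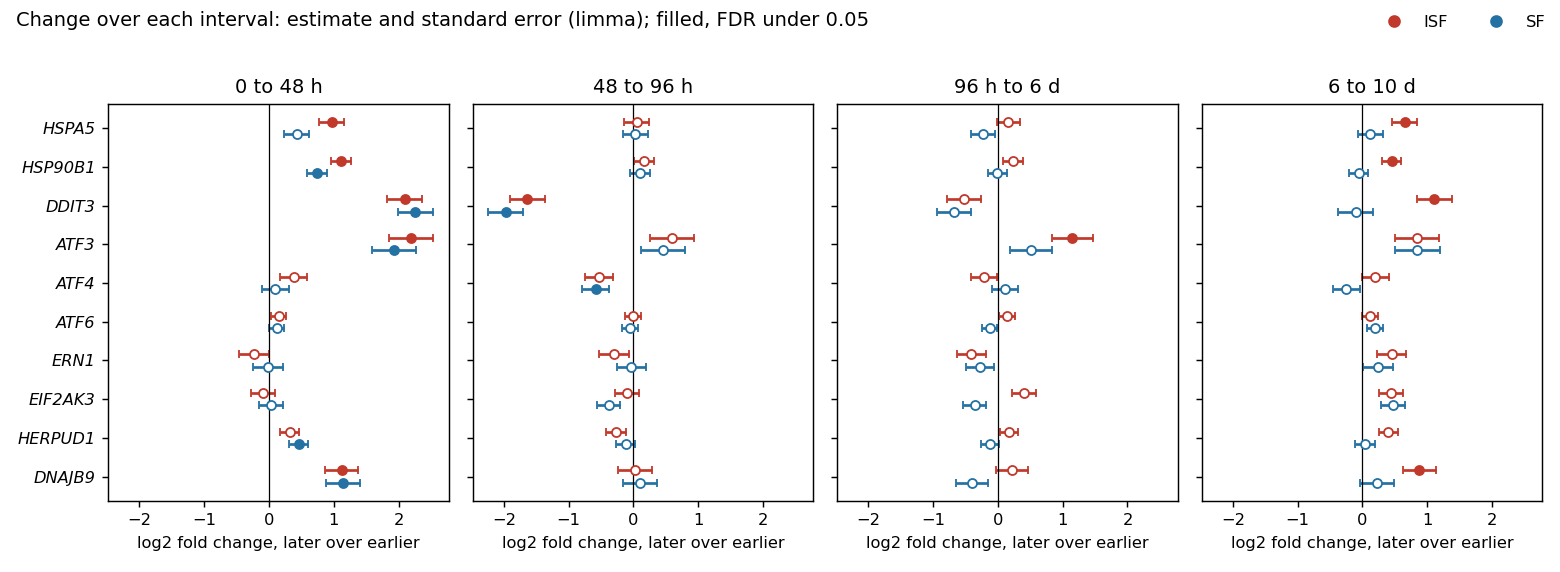
Log2 fold change of each gene over the 4 successive intervals in ISF (red) and SF (blue), with its standard error (limma), filled where the FDR was under 0.05. DDIT3 is filled on the right from 0 to 48 hours and on the left from 48 to 96 hours in both fluids, and on the right again from 6 to 10 days in ISF.

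Ordered by mean log2 level over the 9 groups, HSPA5 and HSP90B1 had the 4 ISF groups first, from 10 days down to 48 hours, then the 4 SF groups and last the uncultured cells. DDIT3 had both groups of 48 hours first, followed by ISF at 10 days. ATF3 began with ISF at 10 and 6 days, followed by SF at 10 and 6 days. ERN1 had the uncultured cells highest and ISF at 6 days lowest. Most neighbors in these orders did not differ beyond their spread. Of the 8 steps between neighbors, 6 to 8 were below the larger SD of both groups, and all 8 were for ATF4, ATF6, EIF2AK3 and HERPUD1.

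Over the 68 libraries, Pearson correlations on the log2(GeTMM + 1) scale ranged from -0.44 (HSP90B1 with ERN1) to 0.90 (HSPA5 with HSP90B1) between the 10 genes. They describe libraries that share horses, time points and the same scaling, and no test was made of them. ATF6 and EIF2AK3 had 0.76, and DDIT3 and ATF4 had 0.67, whereas DDIT3 and ATF3 had -0.02. Among all tested genes with a symbol, the most alike to HSPA5 were HSP90B1 (0.90), PDIA3 (0.88) and HYOU1 (0.86), and to HSP90B1 they were PDIA6 (0.92), HSPA5 (0.90) and TMED9 (0.88). For DNAJB9 they were TMED7 and DERL1 (0.91 each) and TMED2 (0.88), for EIF2AK3 MINPP1 (0.88), ERO1A (0.85) and CPD (0.82), and for ATF6 EDEM3 (0.82), UBE2G1 and MINPP1 (0.81 each). ATF3 was most like DYNC1LI2 (0.94), PI4K2A and MMP12 (0.93 each), DDIT3 like POR and IFNGR2 (0.84 each) and SH2D3A (0.82), and ATF4 like CARS1 (0.85), WBP2 (0.83) and CCDC9 (0.82). ERN1 was most like N4BP2 and ARID1B (0.85 each) and MGA (0.84). HERPUD1 had no correlation above 0.66 (EDEM1), followed by TGIF1 (0.59) and DNAJB12 (0.58).

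Other genes of the pathway were read from lists that leave out the 10 genes above. Their counts stand beside the shares of all genes given above for each comparison, 16.7% higher and 13.6% lower at 6 days and 9.95% and 10.8% at 10 days. Without the SF library of Moon, 17.8% of all genes were called higher and 18.4% lower at 6 days. In ISF compared with SF, ER chaperones and folding enzymes had 0 of 15 tested genes called at 48 and at 96 hours, 10 called higher at 6 days (12 without the library of Moon) and 11 at 10 days, with none lower. The median log2 fold change of the list was 0.64 at 6 days and 0.76 at 10 days, where that of all genes tested was 0.00 and -0.02. ERO1A, the oxidase that drives disulfide formation, had the highest value at both times, 1.49 (SE 0.26, FDR 7.40e-06) at 6 days and 1.91 (SE 0.28, FDR 5.44e-07) at 10 days. It was followed by HYOU1, a nucleotide exchange factor of BiP, at 6 days (0.90, FDR 1.09e-05) and by CRELD2, a secreted ER stress product, at 10 days (1.44, FDR 3.68e-06). ERO1A was also the gene of this list whose difference between the fluids changed from 48 hours to 6 days (1.80, FDR 0.00184, and 1.51, FDR 0.00206, without the library of Moon). Of ER-associated degradation, 6 of 15 genes were called higher at 6 days, with or without the library of Moon, and 6 at 10 days, with none lower. VCP was called at 96 hours (0.26, FDR 0.0437), but not without both ISF libraries labelled Dealings and Dreamer (0.23, FDR 0.159). EDEM3 (0.73, FDR 0.0172) and DERL1 (0.61, FDR 0.00126) were highest at 6 days, and without the library of Moon they were 0.30 (FDR 0.0782), no longer called, and 0.36 (FDR 0.00235). At 10 days EDEM1 (0.82, FDR 5.24e-05) and DERL2 (0.68, FDR 1.18e-05), of lectin-guided disposal and the export channel, were highest. Of the translocon and signal peptidase, 1 of 12 genes was higher and 1 lower at 6 days (SEC61A1, 0.30, FDR 0.00689, and SSR4, -0.54, FDR 0.0113). SSR4 was not called without the library of Moon (-0.31, FDR 0.0621). At 10 days 6 were higher, led by SEC63 (0.59, FDR 3.79e-05) and SPCS3 (0.57, FDR 4.85e-04).

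**Figure D5:**
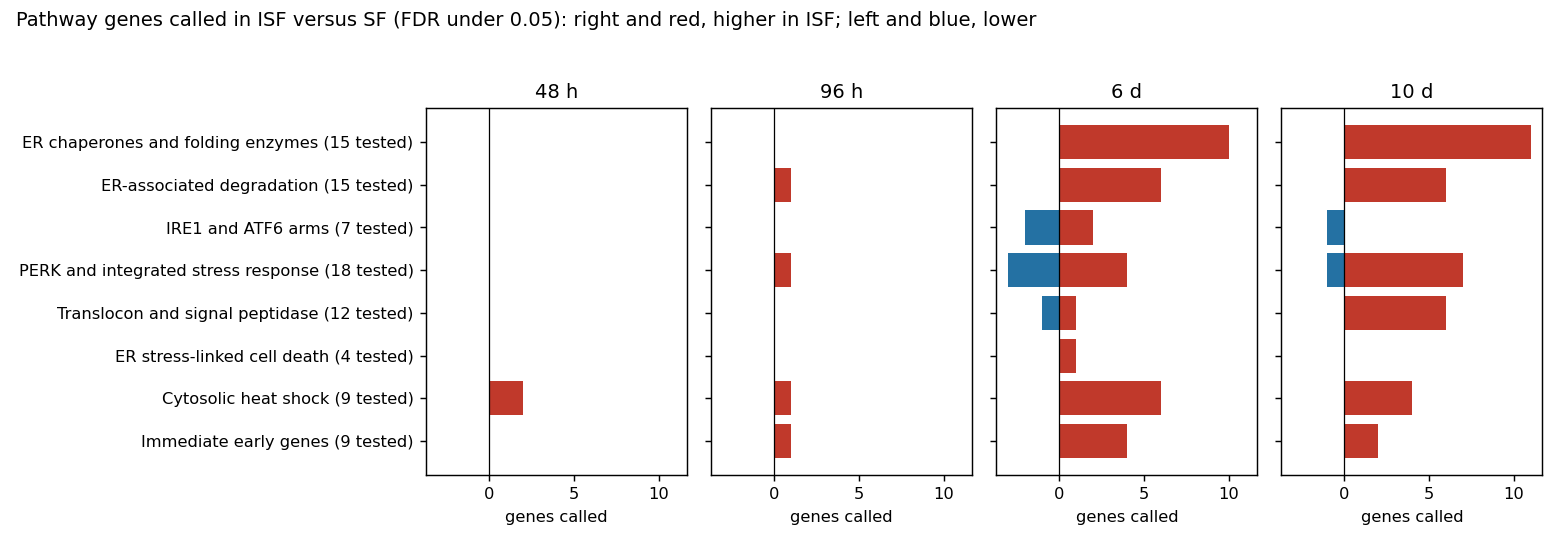
Number of genes called in ISF compared with SF (FDR under 0.05) in each fixed pathway list at 48 hours, 96 hours, 6 days and 10 days, with genes higher in ISF to the right in red and lower genes to the left in blue, and the number tested beside each name. The ER chaperones have the longest bars, 10 of 15 at 6 days and 11 of 15 at 10 days.

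In the signaling arms, genes were called in both directions. Of 7 genes of the IRE1 and ATF6 arms, CREB3L2 (0.71, FDR 0.00459) and MBTPS2 (0.54, FDR 0.00295) were higher in ISF at 6 days, and XBP1 (-0.33, FDR 0.0438) and MBTPS1 (-0.23, FDR 0.0172), which encodes the protease that first cuts ATF6, were lower. Without the library of Moon all 4 were called, with CREB3L2 at 0.44 (FDR 0.0239) and MBTPS2 at 0.31 (FDR 0.00959), and 3 of 7 were higher and 3 lower. At 10 days only ATF6B was called, lower by -0.27 (FDR 0.0418). Of 18 genes of PERK and the integrated stress response, 4 were higher and 3 lower at 6 days, with or without the library of Moon, near the 16.7% and 13.6% of all genes, and 7 were higher and 1 lower at 10 days, against 9.95% and 10.8%. TRIB3, a pseudokinase induced by ATF4 and CHOP, was highest at 10 days (2.16, SE 0.43, FDR 1.46e-04, with group means of 15.4 and 1.97 GeTMM), followed by DDIT4 (1.47, FDR 0.0348). At 6 days DDIT4 (1.47, FDR 0.0155) and the cystine transporter SLC7A11 (1.05, FDR 0.00318) were highest. NUPR1 (-1.72, FDR 5.82e-04) and the serine synthesis enzyme PHGDH (-1.28, FDR 0.00334) were lowest at 6 days, and PHGDH (-0.98, FDR 0.0489) was the gene lower at 10 days. At 96 hours SLC3A2 was the gene called in this list (0.57, FDR 0.0162), and it was not called without both ISF libraries labelled Dealings and Dreamer (0.50, FDR 0.0792). Of 4 genes of ER stress-linked cell death, BAK1 was higher at 6 days (0.50, FDR 0.0122), with 2 higher without the library of Moon, and none was called at the other 3 times.

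Of lists outside the ER, cytosolic heat shock genes had 2, 1, 6 and 4 of 9 called higher in ISF at the 4 successive times and none lower, with 7 at 6 days without the library of Moon. BAG3, a co-chaperone of HSP70, was among them at every time, with 0.63 (FDR 0.0321) at 48 hours, 0.93 (FDR 2.56e-05) at 96 hours, 1.16 (FDR 5.00e-08) at 6 days and 0.64 (FDR 0.00407) at 10 days. Immediate early genes, a group to which ATF3 is also assigned, had 0, 1, 4 and 2 of 9 called higher, and the 1 of 96 hours, JUN (0.71, FDR 0.0463), was not called without both ISF libraries labelled Dealings and Dreamer (0.68, FDR 0.118). From 0 to 48 hours, when ATF3 rose, 6 of these 9 genes fell in each fluid, with FOSB at -5.21 (FDR 1.23e-27) in ISF and -5.92 (FDR 2.20e-30) in SF, and FOS at -3.42 (FDR 1.15e-12) and -3.44 (FDR 1.21e-12).

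Over the first 48 hours most genes called in the ER lists were higher in culture in both fluids, where 25.3% of all genes were higher and 27.4% lower in ISF, and 22.3% and 23.1% in SF. ER chaperones and folding enzymes had 12 of 15 genes called higher in ISF and 10 in SF with none lower, and translocon genes 9 and 7 of 12 with none lower. ER-associated degradation had 9 higher and 2 lower in ISF and 7 higher and 1 lower in SF, with SEL1L highest (1.03, FDR 7.37e-07, and 1.00, FDR 1.71e-06) and OS9 lowest (-0.78, FDR 4.50e-07, and -0.76, FDR 1.34e-06). The integrated stress response had 10 higher and 2 lower in ISF and 7 higher and 3 lower in SF. PSAT1, of serine synthesis, was highest (4.28, FDR 2.35e-10, and 3.35, FDR 2.18e-07), followed by TRIB3 (2.66, FDR 2.11e-07, and 2.22, FDR 1.09e-05), while the kinases EIF2AK4 (-0.97, FDR 3.52e-13, and -0.93, FDR 2.25e-12) and EIF2AK1 (-0.73, FDR 5.52e-05, and -0.69, FDR 1.65e-04) were lowest. In SF, the IRE1 and ATF6 arms were called in both directions, highest for MBTPS2 (0.64, FDR 3.42e-04) and lowest for ATF6B (-0.35, FDR 0.00189). The rise in SF was not particular to the ER lists. Cytosolic heat shock genes were called higher there as well, led by BAG3 (1.57, FDR 2.07e-12) and HSPH1 (1.53, FDR 8.62e-11), and none lower. From 6 to 10 days in ISF, when HSPA5, HSP90B1 and DNAJB9 rose, 1 of 15 chaperones of the list (ERO1A, 0.79, FDR 0.0443), 2 of 15 degradation genes and 3 of 18 genes of the integrated stress response were called higher and none lower, against 5.09% of all genes higher and 5.44% lower.

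The libraries are of mixed cells, and the mixture moved with time and fluid. In bulk RNA, fewer cells of a type and less RNA per cell cannot be told apart. Before culture, neutrophil precursor genes summed to 11356 to 20997 GeTMM, T cell genes to 127 to 321, erythroid genes to 76.2 to 1230.4, macrophage genes to 170.3 to 287 and plasma cell genes to 378 to 3873, all of which are cells of the marrow. From 0 to 48 hours all 6 macrophage markers were called higher and all 4 erythroid markers lower in both fluids, and the macrophage sum reached 5044 to 9618 GeTMM in ISF and 5797 to 13119.6 in SF. Between ISF and SF, the macrophage sums overlapped, at 10602 to 14946 and 13341 to 32242 GeTMM at 6 days and at 12006 to 20698 and 11138 to 27690.0 at 10 days, with 1 marker higher and 1 lower at 6 days and 1 higher at 10 days. At 6 and 10 days all 5 T cell markers were lower in ISF, and their sum at 10 days was 4.33 to 14.8 GeTMM in ISF and 23.5 to 199 in SF. Of 6 neutrophil precursor markers 5 were lower in ISF at 6 days (3 without the library of Moon) and 3 at 10 days (sums of 0.759 to 63.7 GeTMM in ISF and 2.15 to 1648 in SF). All 5 fibroblast or stromal markers were lower in ISF at 10 days, with a sum of 0.123 to 49.2 GeTMM in ISF and 0.406 to 4038 in SF, highest in Lurie. Plasma cells secrete much and express ER chaperones strongly. Of their 4 markers 2 were lower in ISF at 6 days (3 without the library of Moon) and none was called at 10 days, where the sums were 378 to 1261 GeTMM in ISF and 528 to 1685 in SF. These sums hide markers that moved apart. From 0 to 48 hours in SF, SDC1 rose by 4.26 on the log2 scale (FDR 7.38e-21) and MZB1 fell by -2.19 (FDR 4.97e-04). In SF at 10 days the means were 606 GeTMM for SDC1, 358 for JCHAIN, 2.33 for MZB1 and 1.82 for TNFRSF17. Similar sums thus do not show a similar content of plasma cells. Cell cycle markers were higher in ISF at 6 days (3 of 4) and not called at 10 days, and erythroid markers were called at neither time, ALAS2 being at 0 in every ISF library of 10 days. The part of these shifts in the differences of HSPA5 and the other genes was not tested.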

How the data were processed

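RNA of 68 libraries was sequenced as stranded read pairs. As the authors describe, reads were mapped to EquCab3.0 with STAR 2.7.2a, counted per gene and converted with edgeR. The deposited values are GeTMM, RPKM-like reads per kilobase scaled between libraries by TMM, on a linear scale. Coordinates were not used here. All columns matched 1 library by horse, fluid and time, and 0 were left unmapped.

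Values were analysed as log2(GeTMM + 1), with a pseudocount of 1, for the 14570 genes at 0.5 GeTMM or more in at least 7 libraries. 1 fit of all 9 groups, with no term for horse, was made with limma 3.58.1 (lmFit, eBayes with trend) in R 4.3.3. Tests were two-sided, with Benjamini-Hochberg FDR over all genes tested, called under 0.05. The 14 comparisons were ISF versus SF at 4 times, 4 intervals in each fluid and 2 interactions. The fit was tried on simulated data with independent noise in each library and no effect of horse. That trial cannot show how the fit behaves where libraries of a horse deviate together. P-values of this fit rest on the spread between libraries within a group, pooled over the 9 groups, with 1 culture per horse in each group. Libraries of the same horse were treated as independent in it.

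Whole reads were recovered from the steps between values (within 0.002 reads for all 24065 genes above 0), which gave depth, gene lengths and the alternative with limma voom. Alternatives were pseudocount 0.1, no filter, a filter of 2 GeTMM, the horse as a replicate block, only the groups compared, rescaling by median ratio, voom, and leaving out 1 or 2 libraries that stood apart. The lists were also counted without these libraries, an alternative chosen after seeing the data. Libraries of 1 horse name come from the same animal. The correlation of their deviations from the group means was over 0.1 in 80 of 88 pairs (median 0.38). The main fit leaves this pairing out, and values with the horse as a block are given where a call changed. Horses were taken as labelled in that block.

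The 10 genes, the lists and the tests were chosen with earlier results of these data known. From the lists, genes named are those with the highest or lowest log2 fold change among those called, at most 2 each way per list and comparison, and, for each of the 10 genes, the 3 with the highest Pearson correlation. VCP, SLC3A2, BAK1, ERO1A from 48 hours to 6 days and BAG3 at each time follow the same rule. Listed genes with no entry in the table (10 genes) were left out of the counts. Figures and summaries were made with Python 3.11.15, numpy 2.4.6, pandas 2.3.3, scipy 1.17.1 and matplotlib 3.10.9.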

Additional observations from a re-analysis of the deposited data

Results flagged for a closer look

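In each of the 90 sets of libraries given by 1 of the 10 genes and 1 of the 9 groups, the highest and the lowest library were compared with the others by Dixon's ratio of gap to range at its 95% critical value. The ratio was taken on linear GeTMM, a scale that stretches high values more than the log2 scale of the other tests. In 12 of the 90 sets a library passed it, where about 4.50 would by chance at 1 in 20. That number holds for sets that are independent and normally spread. The sets share libraries, and several flags came from the same library, so the 2 numbers cannot be weighed against each other.

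Of the 12 flags, 6 were the SF library of Moon at 6 days. It was highest for HSP90B1 (754 GeTMM, others 322 to 435), DDIT3 (134, others 44.3 to 65.3) and ATF4 (1132, others 149.5 to 238). It was lowest for ATF6 (22.8, others 49.6 to 65.4), EIF2AK3 (3.56, others 16.1 to 24.3) and DNAJB9 (3.62, others 37.9 to 53.7).

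RimRun was highest for DDIT3 in ISF at 48 hours (711 GeTMM, others 219 to 422) and for ATF4 in ISF at 48 hours (754, others 284 to 471) and in SF at 96 hours (362, others 195 to 259). Flash was highest before culture for DDIT3 (178 GeTMM, others 47.5 to 98.4) and HERPUD1 (202, others 113 to 151). Ollie was highest before culture for DNAJB9 (33.0 GeTMM, others 13.4 to 18.3), and its plasma cell markers also had the highest sum of that group (3873 GeTMM, group median 692). The gap of short over long genes was 0.19 in this library of Ollie and in that of RimRun in ISF at 48 hours. It was -0.05 in RimRun in SF at 96 hours and -0.12 in Flash before culture. Whether the flags are linked to these sums or gaps was not tested.

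The difference between the fluids changed from 48 hours to 6 days for EIF2AK3, by 1.04 on the log2 scale (limma interaction, FDR 0.00860).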

How the results depend on the processing

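Over 9 alternatives, the 10 genes and 14 comparisons, values of called genes kept their direction and their call in 274 cases and lost the call in 14, and none reversed. Of values not called, 925 stayed so, 26 were called and 21 reversed sign. The cause was not tested, except that fits with fewer groups or libraries have another residual spread. The number of the 10 genes called moved by over 1.5 times in these cases. In ISF versus SF at 96 hours (1) it was 0 with no filter, 2 with the replicate block, 4 with only the groups compared (2 higher and 2 lower), 2 without the SF library of Moon and 0 without the ISF libraries of 96 hours labelled Dealings and Dreamer. For ISF from 48 to 96 hours (1) it was 2 with the replicate block, 2 with only the groups compared and 2 without the library of Moon. For ISF from 96 hours to 6 days (1) it was 0 with only the groups compared and 2 without the library of Moon, and from 6 to 10 days (4) it was 2 with only the groups compared. For SF from 48 to 96 hours (2) it was 1 with no filter and 4 with only the groups compared (1 higher and 3 lower), and from 6 to 10 days (0) it was 1 with the replicate block. For the interactions it was 0 (of 1) with only the groups compared from 48 hours to 6 days, and 1 (of 0) without the library of Moon from 6 to 10 days. The replicate block of horses changed no calls other than those given above.

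Every reversal was of a value near 0 or one that rested on the library of Moon, and none was called. Rescaling by the median ratio gave -0.03 for HERPUD1 in ISF versus SF at 6 days, -0.00 for DNAJB9 in ISF from 48 to 96 hours, 0.00 for HSP90B1 in SF from 96 hours to 6 days and 0.02 for ATF3 in the interaction from 6 to 10 days. The replicate block gave 0.04 for ATF6 in ISF and 0.05 for ERN1 in SF from 48 to 96 hours, and -0.05 for EIF2AK3 in SF from 0 to 48 hours, where voom gave 0.00 for ERN1. Without the library of Moon, ISF versus SF at 6 days was 0.31 for ATF4 and -0.01 for HERPUD1. SF from 96 hours to 6 days was then -0.20 for ATF4, 0.04 for ATF6 and 0.01 for DNAJB9. SF from 6 to 10 days was 0.07 for HSP90B1, 0.06 for DDIT3, 0.06 for ATF4, -0.03 for ERN1 and -0.18 for DNAJB9. The interactions were 0.03 for ATF4 from 48 hours to 6 days, and 0.09 for ATF6 and 0.24 for EIF2AK3 from 6 to 10 days.

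ERN1 had the fewest reads, with 29 in the SF library of Moon at 6 days, where DNAJB9 had 31. That library had 20.8 M reads on genes, near the median of 22.3 M. Outside the SF group of 6 days, the lowest library of ERN1 had 98 reads. Each horse gave 1 culture per condition, so the spread between cultures of a horse was not measured.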
